A study of Homo sapiens with 76 samples.

Results

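The response of TK6 cells to hydrogen peroxide was described from 4 of the 76 samples of the series, the 2 samples labelled H2O2 at 80 µM and the 2 samples of the H2O vehicle control, taken by these labels. The members described are the 61 genes of the TGx-DDI panel, a set of transcripts assembled to tell agents that damage DNA (DDI) from agents that do not (non-DDI). TK6 is a human B lymphoblastoid cell line with functional p53, and cells were exposed in culture for 4 h. The whole series holds 29 treatments and 9 vehicle conditions with 2 biological replicates each. Replicates were exposed on separate occasions according to the study's methods. For comparison, bleomycin at 10 µg/ml and 2-deoxyglucose (2-DG) at 20 µM, both in H2O, and gamma rays at 4 Gy with the Media vehicle were used, with 2 samples in each group and the same 4 h. All of these samples are from 1 cell line, at 1 dose and 1 time per agent.

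Hydrogen peroxide oxidizes bases and, through hydroxyl radicals, breaks DNA strands. Strand breaks activate the kinases ATM and ATR, which stabilize the transcription factor p53. Targets of p53 arrest the cell cycle, repair DNA, supply nucleotides, switch off p53 again or promote cell death. Bleomycin and gamma rays also break DNA strands through radicals, whereas 2-DG blocks glycolysis and is classed as non-DDI. In the study, however, the panel profile of this glycolysis inhibitor was misclassified as DDI by most classification methods and left undecided by another. A difference from it on this panel is therefore not a difference from a clear non-DDI profile. The panel and the doses were chosen in earlier work on these same agents, the doses in part by induction of GADD45A and CDKN1A, so a count of genes in one direction is not independent evidence of that direction.

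Levels were expressed as minus delta Cq, the mean quantification cycle (Cq) of the reference genes HPRT1 and GUSB minus the Cq of the gene, so that a step of 1 stands for about a doubling of transcript and a less negative value for a higher level. A difference of minus delta Cq between groups is on the log2 scale. The Cq values of the panel in the 4 samples lay between 22.5 and 35.1 (median 26.5), with 1 value over 35, from CEBPD. HPRT1 was at 22.86 and 23.22 after H2O2 and at 22.66 and 22.64 in the H2O vehicle, a difference of 0.390 cycles (exact permutation test, two-sided, p = 0.333, the smallest that 2 samples against 2 can give). The HPRT1 samples of the groups did not overlap, and this test could not have passed the threshold. GUSB differed by 0.010 cycles (p = 1.000, same exact test). The median gap between replicates over the panel was 0.14 cycles for H2O2 and 0.24 cycles for the H2O vehicle.

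The H2O vehicle samples stood apart from the other vehicle samples, and the counts and most results below are therefore also given against other controls. Against the mean of the 8 other vehicle conditions (16 samples), the H2O vehicle differed in 43 of 61 genes (70.5%, limma, adjusted p under 0.05), 9 of them higher (14.8%) and 34 lower (55.7%). Against the separate H2O vehicle that the labels assign to the arsenic compound NaAsO2, also water and also 1 of the 8, it differed in 31 genes (50.8%), 17 higher (27.9%) and 14 lower (23.0%). GADD45A, a stress-induced regulator of growth arrest, was the most extreme case. Its level was 0.70 and 0.42 in the H2O vehicle, whereas the 16 samples of the other vehicles ranged from −2.52 to −0.77 with a median of −1.49. The cause of this gap was not tested.

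After H2O2, 45 of 61 genes differed from the H2O vehicle (73.8%, limma with Benjamini-Hochberg adjustment over the panel, adjusted p under 0.05). Of these, 34 were higher (55.7%) and 11 were lower (18.0%), and 16 were not called. The median log2 difference over the panel was 0.73, and the range was −2.02 to 3.46. This median was 0.92 with HPRT1 alone and 0.54 with GUSB alone. When each sample was scaled to the median Cq of its own panel genes, the median difference was 0.02, and 20 genes were higher and 16 lower. Against the mean of the 8 other vehicles, 25 genes were higher and 15 lower, and against the H2O vehicle for NaAsO2, 36 were higher and 3 lower. A set of 23 genes was higher against all 3 controls and also against 2-DG directly, and CENPE, HIST1H2BG and RAPGEF2 were lower in all 4 comparisons. The H2O2 samples are shared by these comparisons, and the H2O vehicle for NaAsO2 is also 1 of the 8 other vehicles. On the panel median against the H2O vehicle, BLOC1S2 (0.27), E2F7 (−0.26), PRKAB2 (0.20) and SERTAD1 (0.77) of the 23 were not called.

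**Figure D1:**
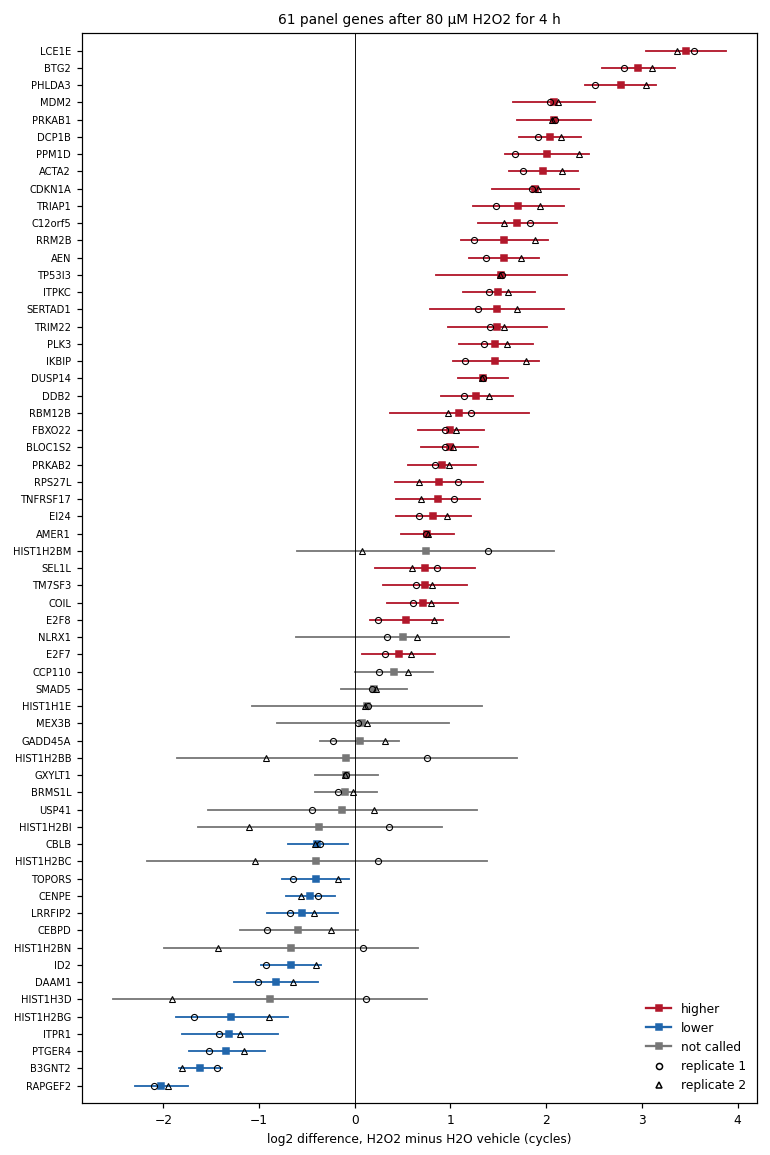
Log2 difference (cycles of minus delta Cq, x axis) between H2O2 and the H2O vehicle for the 61 panel genes (y axis). Squares are the fitted differences, lines their 95% confidence intervals, circles and triangles the differences within replicate numbers 1 and 2, and colours the limma call; LCE1E at 3.46 and RAPGEF2 at −2.02 mark the ends, and the long grey intervals are mostly histone genes.

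Targets of p53 made up most of the genes that rose. Of 22 panel genes listed as p53 targets, 21 were higher after H2O2, 0 were lower, and GADD45A was not called (limma, adjusted p under 0.05). Their median log2 difference was 1.55, against 0.73 over the panel and −0.09 over the 39 other genes, of which 13 were higher and 11 lower. With the panel median as the scale, 16 of the 22 were higher and 1 was lower. Against the mean of the 8 other vehicles 17 were higher, against the H2O vehicle for NaAsO2 21, and 16 were higher against all 3 controls and 2-DG. The H2O vehicle itself was lower than the 8 other vehicles in 17 of the 22 (limma) and higher in 1. Its median difference from them was −0.81 for these targets and −0.62 over the panel. How far the control contributes to the size of the rise was not tested. The list was chosen with earlier results of these data known.

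Promoters were examined because these genes moved together. RefSeq windows of 250 bases before to 50 after a transcription start (build GRCh38.p14) were at hand for 51 of the 61 genes, matched by gene ID. The decamer of the p53 response element was searched by its consensus, which is its own reverse complement, so that both strands were covered. It was found in 6 of 27 genes that were higher against the H2O vehicle (22.2%), in 0 of 11 that were lower and in 1 of 13 not called, BRMS1L. Over all panel genes with a window it was found in 7 of 51 (13.7%), and genome-wide in 8.06% of 27305 genes. Only DDB2 held 2 decamers with at most 13 bases between them, an arrangement found in 0.0285% of all 35116 windows. A match to letters is a description and not evidence of binding. The following stretches show the decamers in capitals, 5′ to 3′ on the strand of the gene, for DDB2 (chr11:47214850-47214999, plus strand), LCE1E (chr1:152786107-152786256, plus strand), AEN (chr15:88621256-88621325, plus strand), RPS27L (chr15:63157517-63157586, minus strand), EI24 (chr11:125569417-125569476, plus strand) and ACTA2 (chr10:88991309-88991368, minus strand, the nearer to the start of its 2 single decamers).
DDB2: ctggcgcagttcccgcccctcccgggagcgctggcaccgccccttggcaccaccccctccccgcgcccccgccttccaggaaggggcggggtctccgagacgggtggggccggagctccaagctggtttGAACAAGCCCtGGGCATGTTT
LCE1E: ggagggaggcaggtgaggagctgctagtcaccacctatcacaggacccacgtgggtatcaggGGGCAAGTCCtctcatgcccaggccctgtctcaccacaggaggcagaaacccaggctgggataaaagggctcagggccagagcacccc
AEN: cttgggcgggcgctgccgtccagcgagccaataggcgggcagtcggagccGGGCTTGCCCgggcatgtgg
RPS27L: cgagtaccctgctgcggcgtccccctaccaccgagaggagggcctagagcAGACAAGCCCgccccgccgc
EI24: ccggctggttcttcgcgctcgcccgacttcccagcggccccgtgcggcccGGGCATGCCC
ACTA2: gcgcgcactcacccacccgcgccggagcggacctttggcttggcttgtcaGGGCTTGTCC

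Among regulators of p53 itself and of growth arrest, BTG2, MDM2, PPM1D, CDKN1A and PLK3 rose, and the median of the 6 genes of this list was 1.95. BTG2, an antiproliferative gene induced early by p53, was at −1.80 and −1.76 after H2O2 and at −4.61 and −4.87 in the H2O vehicle. The replicates thus lay far closer to each other than to the other group. The difference was 2.96 ± 0.19 (SE, n = 2 per group), 7.81-fold (limma, adjusted p = 3.0e-17). It remained 2.15 against the 8 other vehicles and 2.58 against the H2O vehicle for NaAsO2, and the mean level of BTG2 ranked 5 among the 29 treatments.

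MDM2, the ubiquitin ligase that marks p53 for degradation, was at −1.11 and −1.15 after H2O2 and at −3.14 and −3.27 in the vehicle. Its level rose 4.23-fold, or 2.08 ± 0.21 on the log2 scale (limma, adjusted p = 1.9e-11), with 1.25 against the 8 other vehicles. PPM1D encodes the phosphatase Wip1, which removes activating phosphates from p53 and ATM. It was at −1.34 and −1.32 after H2O2 and at −3.01 and −3.66 in the vehicle, a difference of 2.01 ± 0.22 (limma, adjusted p = 7.6e-11). PPM1D ranked 3 among the 29 treatments by its mean level, and its difference was 1.66 against the 8 other vehicles. In both of these negative regulators of p53 the groups did not overlap.

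CDKN1A encodes p21, the inhibitor of cyclin-dependent kinases. Its level was 0.98 and 0.95 after H2O2 and −0.87 and −0.96 in the vehicle, a difference of 1.88 ± 0.23, or 3.69-fold (limma, adjusted p = 1.2e-09). Unlike most of the targets, CDKN1A was further from the other controls than from its own, by 2.18 against the 8 other vehicles and by 2.58 against the H2O vehicle for NaAsO2. PLK3, a stress-responsive polo-like kinase, rose by 1.47 ± 0.19, with levels of −3.50 and −3.42 against −4.85 and −5.01, and was 0.66 above the 8 other vehicles.

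GADD45A was the exception of the list. It was at 0.47 and 0.74 after H2O2 and at 0.70 and 0.42 in the H2O vehicle, so the groups overlapped. The log2 difference was 0.05 ± 0.20 (limma, adjusted p = 0.8623). It was −0.14 with GUSB alone and −0.67 on the panel median. The same 2 samples were 2.08 above the mean of the 8 other vehicles (limma, adjusted p = 2.2e-15) and 2.76 above the H2O vehicle for NaAsO2 (adjusted p = 3.5e-15). They were 2.05 ± 0.20 above 2-DG in the same solvent, and the mean level ranked 5 among the 29 treatments. The call for GADD45A therefore depended on which vehicle served as control.

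**Figure D2:**
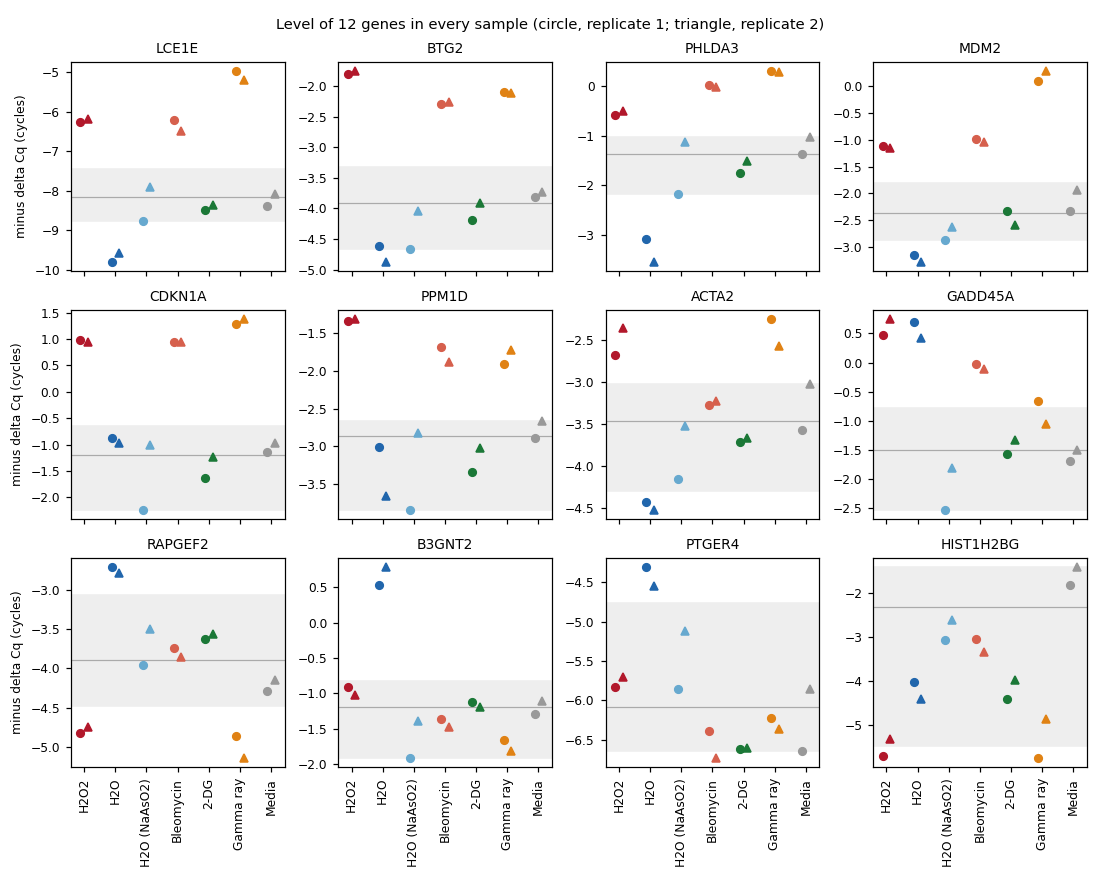
Minus delta Cq (cycles, y axis) of 12 genes in each sample of 7 conditions (x axis), with circles for replicate 1 and triangles for replicate 2. The grey band spans the 16 samples of the 8 vehicles other than the H2O vehicle and the grey line is their median; the H2O vehicle lies outside the band with both samples for LCE1E, PHLDA3, MDM2, ACTA2, GADD45A, RAPGEF2, B3GNT2 and PTGER4, and GADD45A is the panel where H2O2 and H2O overlap.

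All 7 listed p53 targets of cell death and survival rose, with a median log2 difference of 1.53 and a range of 0.82 to 2.78. PHLDA3, a repressor of the survival kinase Akt, led them. It was at −0.58 and −0.50 after H2O2 and at −3.09 and −3.54 in the vehicle, a difference of 2.78 ± 0.18 or 6.87-fold (limma, adjusted p = 6.4e-17). Since the 16 samples of the other vehicles ranged from −2.18 to −1.02, the difference was only 0.86 against their mean (limma, adjusted p = 8.8e-07). TRIAP1, an inhibitor of apoptosis at mitochondria, rose by 1.71 against the H2O vehicle and stood 0.60 above the 8 others. AEN, an exonuclease that degrades DNA in apoptosis, rose by 1.56, TP53I3, an oxidoreductase linked to reactive oxygen species, by 1.53 and IKBIP, which interacts with the kinase IKK, by 1.47. TP53I3 kept its size against the 8 other vehicles, at 1.48, whereas AEN was at 0.92 and IKBIP at 0.57 there. RPS27L, a ribosomal protein paralogue, rose by 0.88 and EI24, an endoplasmic reticulum protein of autophagy, by 0.82, but against the 8 other vehicles they were at 0.33 and 0.08 and were not called.

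The 5 genes of repair, nucleotide supply and metabolism were all higher, with a median of 1.56. PRKAB1, a regulatory subunit of the energy sensor AMPK, was at −1.73 and −2.04 after H2O2 and at −3.82 and −4.10 in the vehicle. The difference was 2.08 ± 0.19 (limma, adjusted p = 1.3e-12), and it was 1.18 against the 8 other vehicles. C12orf5, which encodes TIGAR, a brake on glycolysis, rose by 1.70 but by 0.37 against the 8 others. RRM2B, the p53-inducible subunit of ribonucleotide reductase, rose by 1.56, with 0.94 against the 8 others. DDB2, which recognizes damaged DNA in nucleotide excision repair, rose by 1.27 from levels of −3.40 and −3.52 to −2.26 and −2.12, and was 0.45 above the 8 others. PRKAB2, the other beta subunit of AMPK on the panel, rose by 0.91, with 0.71 against the 8 others. All 5 stayed higher against each of the 3 controls and against 2-DG.

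The remaining listed targets also rose. ACTA2, which encodes smooth muscle actin, was at −2.67 and −2.35 after H2O2 and at −4.43 and −4.52 in the vehicle, a difference of 1.97 ± 0.18 (limma, adjusted p = 5.1e-13). Only 1 of the 29 treatments had a higher mean level of ACTA2. TRIM22, a tripartite motif protein also induced by interferon, rose by 1.49, FBXO22, an F-box protein, by 1.00, and TM7SF3, a membrane protein, by 0.73. None of these 3 was called against the 8 other vehicles, where they were at 0.38, 0.06 and 0.17. E2F7, an atypical E2F that represses cell cycle genes, rose by 0.46 and was further above the 8 others (0.71).

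**Figure D3:**
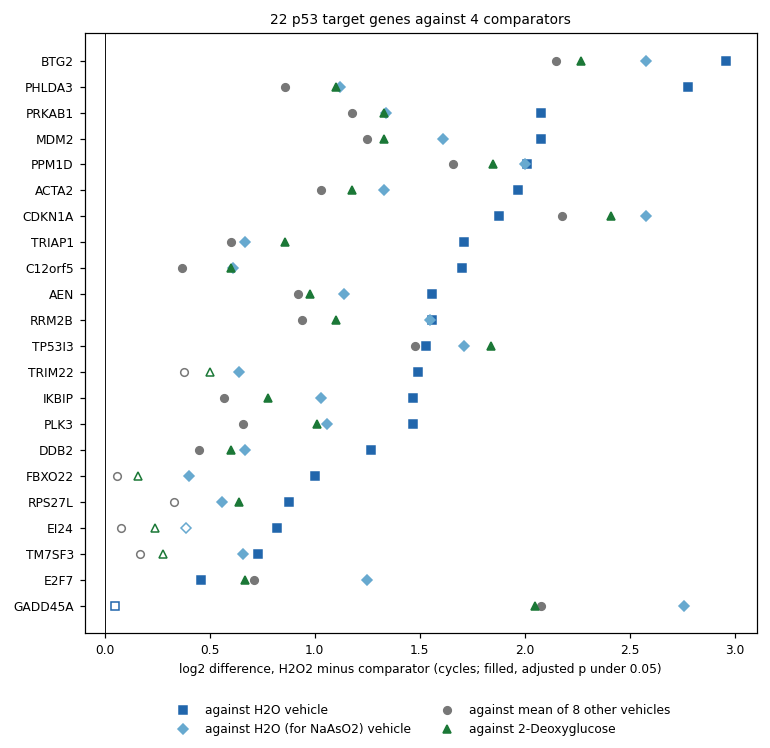
Log2 difference (cycles, x axis) of H2O2 from 4 comparators for the 22 p53 targets (y axis), with filled symbols for genes past the limma threshold. Most squares, against the H2O vehicle, lie to the right of the grey circles, against the mean of the 8 other vehicles; GADD45A, at 0.05 against the H2O vehicle and 2.08 against the 8 others, CDKN1A and E2F7 lie the other way.

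The gene with the highest difference was outside the list of targets. LCE1E, a gene of the cornified envelope of skin, was at −6.25 and −6.19 after H2O2 and at −9.79 and −9.56 in the vehicle. It rose by 3.46 ± 0.21, or 11-fold (limma, adjusted p = 4.2e-18), and its mean Cq over the series was 31.3. Against the 8 other vehicles it was 1.91 higher. DCP1B, a subunit of the mRNA decapping complex, was at −3.05 and −2.96 against −4.97 and −5.12, a difference of 2.04 ± 0.16 (limma, adjusted p = 6.1e-15) that was 0.68 against the 8 others. DUSP14, a phosphatase of MAP kinases, rose by 1.34 and BLOC1S2, a subunit of a complex for lysosome-related organelles, by 0.99, and both were also called against all 3 controls. RBM12B (1.09), TNFRSF17 (0.87), SEL1L (0.73), COIL (0.71) and AMER1 (0.76) rose against the H2O vehicle, but none was higher against the 8 other vehicles, and AMER1 was lower there (−0.24). TNFRSF17, the B cell maturation antigen, is the only gene of the panel that marks the B lineage, and it was measured in all 4 samples at −4.19 and −4.05 after H2O2 and −5.23 and −4.74 in the vehicle.

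The early stress genes went in both directions. Of 6, BTG2, PLK3 and SERTAD1 rose, ID2 fell, and GADD45A and CEBPD were not called. SERTAD1, a regulator of CDK4 and E2F, was at −0.96 and −0.68 after H2O2 and at −2.25 and −2.37 in the vehicle, a rise of 1.49 ± 0.35 that was 1.33 against the 8 other vehicles. ID2, an inhibitor of basic helix-loop-helix factors, was at −0.03 and 0.20 after H2O2 and at 0.90 and 0.61 in the vehicle. Its difference was −0.67 ± 0.16 (limma, adjusted p = 2.6e-04). Against the H2O vehicle for NaAsO2, ID2 differed by 0.01. CEBPD, a transcription factor of acute stress, had the highest Cq of the panel in these samples and was at −11.22 and −11.34 against −10.30 and −11.08. Its difference was −0.59 against the H2O vehicle but 0.95 against the H2O vehicle for NaAsO2, where it was called higher (limma, adjusted p = 0.0062).

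Of 7 listed genes of signalling, RAPGEF2, PTGER4, ITPR1, DAAM1 and CBLB fell, ITPKC rose and SMAD5 was not called, with a median of −0.82. RAPGEF2 is an exchange factor that activates the GTPase Rap. It was at −4.82 and −4.74 after H2O2 and at −2.72 and −2.79 in the vehicle, so the replicates of each group were within 0.08 of each other. The difference was −2.02 ± 0.14, or 4.06-fold lower (limma, adjusted p = 1.5e-16). RAPGEF2 was also lower by 0.97 against the 8 other vehicles, whose samples ranged from −4.48 to −3.07, and both H2O2 samples lay below all 16 of them. Its mean level ranked 26 from the top among the 29 treatments.

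PTGER4, a receptor for prostaglandin E2, was at −5.83 and −5.70 after H2O2 and at −4.31 and −4.54 in the vehicle, a difference of −1.34 ± 0.19 (limma, adjusted p = 7.8e-08). The other vehicles ranged from −6.65 to −4.76, and against their mean PTGER4 was at 0.13 and not called. ITPR1, the channel that releases calcium from the endoplasmic reticulum, was at −5.16 and −5.23 against −3.74 and −4.03, a difference of −1.31 ± 0.25 (limma, adjusted p = 1.4e-05). It was −0.51 against the 8 others and 0.39 against the H2O vehicle for NaAsO2. DAAM1, a formin that organizes actin, was at −3.87 and −3.72 against −2.86 and −3.08. Its difference of −0.82 ± 0.22 (limma, adjusted p = 9.7e-04) turned to 0.58 against the H2O vehicle for NaAsO2, where it was called higher. CBLB, a ubiquitin ligase that dampens receptor signalling, was lower by a smaller amount, at −2.15 and −2.30 against −1.79 and −1.88. Against the H2O vehicle for NaAsO2 it was at 0.00 and not called. By contrast ITPKC, a kinase that phosphorylates inositol trisphosphate, rose by 1.50 ± 0.18 (limma, adjusted p = 1.5e-09) and was higher against all 3 controls.

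B3GNT2, an enzyme that extends sugar chains on glycoproteins, showed the clearest dependence on the control. It was at −0.91 and −1.02 after H2O2 and at 0.53 and 0.78 in the H2O vehicle, a difference of −1.62 ± 0.11 (limma, adjusted p = 1.1e-16). The 16 samples of the other vehicles ranged from −1.91 to −0.83, a range that held both H2O2 samples. Against their mean B3GNT2 was higher by 0.26 (limma, adjusted p = 0.0066), and against the H2O vehicle for NaAsO2 by 0.69 (adjusted p = 6.5e-07). Opposite calls also occurred for E2F8 and AMER1 against the 8 others and for DAAM1 against the H2O vehicle for NaAsO2.

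Other genes that fell did so by less. LRRFIP2, a regulator of Toll-like receptor signalling, was at −1.95 and −1.70 after H2O2 and at −1.27 in both vehicle samples. Its difference was −0.55 ± 0.18 (limma, adjusted p = 0.0065), but with HPRT1 alone it was −0.36 and not called. TOPORS, a topoisomerase-binding ubiquitin ligase, was at −3.40 and −2.97 against −2.75 and −2.79. Against the H2O vehicle for NaAsO2, LRRFIP2 was at 0.18 and TOPORS at 0.02, and neither was called. CENPE, the kinesin of the kinetochore, was at −2.27 and −2.24 against −1.89 and −1.68, a difference of −0.47 ± 0.13 (limma, adjusted p = 0.0011). In the 16 samples of the other vehicles CENPE ranged from −2.11 to −1.11, above both H2O2 samples. Of the other cell cycle genes, E2F8, an atypical E2F repressor, rose by 0.54 but was 0.36 lower than the 8 others (limma, adjusted p = 0.0247), and CCP110, a centriole protein, was not called at 0.41. NLRX1, MEX3B, GXYLT1, BRMS1L and USP41 were not called, with differences between −0.13 and 0.50.

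Of 8 histone genes of cluster 1, only HIST1H2BG fell against the H2O vehicle and the other 7 were not called. Against the mean of the 8 other vehicles, 6 of those 7 were also called lower (limma), from −1.20 for HIST1H1E to −1.92 for HIST1H2BC, and only HIST1H2BM, at −0.90, was not called. Against the H2O vehicle for NaAsO2 the 7 ranged from −1.44 to 0.21 and were not called. HIST1H2BG was at −5.69 and −5.30 after H2O2 and at −4.01 and −4.40 in the vehicle, a difference of −1.29 ± 0.29 or 2.44-fold lower (limma, adjusted p = 1.6e-04). Against the mean of the 8 other vehicles the difference was −2.81 (limma, adjusted p = 9.9e-15), and the mean level ranked 27 from the top among the 29 treatments. Histone transcripts accumulate when DNA is replicated, and their genes carry CCAAT boxes upstream of the start. Of 9 windows of the 8 histone genes, 8 held at least 2 matches to CCAAT or its complement ATTGG, against 10.8% of all windows, with overlapping matches counted. The stretches of HIST1H2BG (chr6:26216689-26216878, minus strand), which fell, and HIST1H2BB (chr6:26043714-26043903, minus strand), which was not called against the H2O vehicle, are shown with these letters in capitals, and each held 3 matches.
HIST1H2BG: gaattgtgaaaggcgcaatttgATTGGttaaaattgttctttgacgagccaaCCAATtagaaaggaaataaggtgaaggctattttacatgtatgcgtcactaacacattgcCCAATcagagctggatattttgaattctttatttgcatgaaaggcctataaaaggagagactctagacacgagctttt
HIST1H2BB: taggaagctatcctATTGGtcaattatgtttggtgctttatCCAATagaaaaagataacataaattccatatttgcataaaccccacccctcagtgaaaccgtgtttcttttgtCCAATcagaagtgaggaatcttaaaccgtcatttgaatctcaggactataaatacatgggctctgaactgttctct

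In the other 7 histone genes the replicates differed more than in most of the panel. Over the series their SD within conditions was 0.611 to 0.909, against a panel median of 0.203, although USP41 reached 0.719. HIST1H2BB was at −2.73 and −3.60 after H2O2 and at −3.48 and −2.67 in the vehicle, so the groups overlapped. HIST1H3D was at −1.55 and −2.56 against −1.67 and −0.65, and HIST1H2BN at −3.57 and −4.31 against −3.66 and −2.88. In these genes the 2 replicate numbers went opposite ways in the 2 groups. HIST1H2BC was at −4.08 and −5.04 against −4.32 and −4.00, and HIST1H2BI at −2.79 and −3.69 against −3.15 and −2.59. HIST1H2BM was at −1.46 and −2.20 against −2.86 and −2.28, with a difference of 0.74 ± 0.66, and HIST1H1E, a linker histone, at 0.11 and −0.48 against −0.03 and −0.59. The median gap of the 7 genes, replicate 2 minus replicate 1, was −0.87 for H2O2 and 0.58 for the H2O vehicle. Over the 38 conditions this gap was below 0 in 37, with a median of −0.92, and the H2O vehicle was the exception. A replicate block in the 16 samples of the H2O vehicle and its agents, with the vehicle's numbers crossed, was tried after seeing the data. There HIST1H2BM (0.74, limma, adjusted p = 0.0260) and HIST1H3D (−0.89, adjusted p = 0.0462) were called, and the others of the 7 were not. With the numbers as given, neither was called (limma, adjusted p = 0.0818 and 0.1488). The cause of the exception was not tested.

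**Figure D4:**
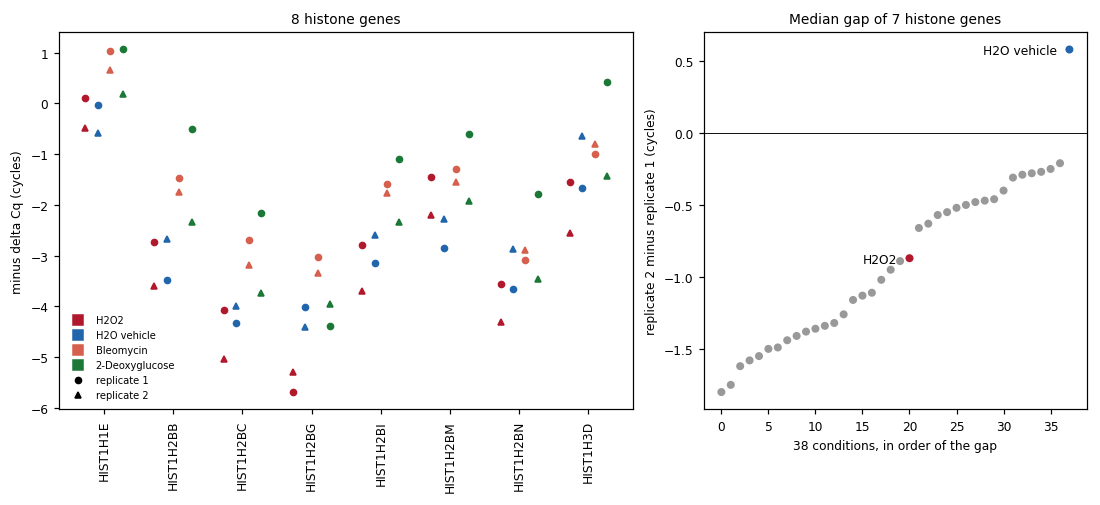
Left, minus delta Cq (cycles) of 8 histone genes in the replicates of 4 conditions sharing H2O as solvent. Right, the gap between replicate 2 and replicate 1 (cycles, median of 7 histone genes without HIST1H2BG) for each of the 38 conditions in order, with the H2O vehicle at 0.58 above 0 and H2O2 at −0.87 among the others.

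The direct comparison with bleomycin, which does not use the vehicle samples, asks where 2 strand-breaking agents in the same solvent differ. Only 8 of 61 genes differed (13.1%, limma, adjusted p under 0.05), 4 higher (6.56%) and 4 lower (6.56%) after H2O2, and 17 genes had an unadjusted p under 0.05. The median difference was −0.06. Of the 22 p53 targets 19 were not called, a share close to the 53 of 61 over the panel, with ACTA2 and GADD45A higher and PHLDA3 lower. Leaving out replicate 2 of H2O2 reduced the higher genes to 1, and leaving out any 1 of the 4 samples reduced the lower genes to 2. On the panel median as scale 20 genes were higher and 2 lower. With the replicate number as a block 7 genes were higher and 9 lower, adding BTG2, DUSP14 and ID2 above and HIST1H1E, HIST1H2BB, HIST1H2BC, HIST1H2BI and ITPR1 below.

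HIST1H2BG, at −3.03 and −3.34 after bleomycin, was lower after H2O2 by 2.30 ± 0.29 (limma, adjusted p = 5.8e-08). RAPGEF2, at −3.74 and −3.86 after bleomycin, differed by −0.98 ± 0.14 (limma, adjusted p = 5.4e-07). E2F8 was at −2.17 and −2.27 after bleomycin and at −2.87 and −2.81 after H2O2, and PHLDA3 at 0.01 and −0.02 against −0.58 and −0.50. These 4 were lower after H2O2, PHLDA3 just past the threshold (−0.53 ± 0.18, limma, adjusted p = 0.0494). Among those higher, PTGER4 was at −6.39 and −6.73 after bleomycin, a difference of 0.80 ± 0.19 (limma, adjusted p = 0.0021). ACTA2 was at −3.27 and −3.22 after bleomycin (difference 0.74 ± 0.18), GADD45A at −0.02 and −0.11 (0.67 ± 0.20) and B3GNT2 at −1.37 and −1.47 (0.46 ± 0.11). For CDKN1A, at 0.94 in both bleomycin samples, the difference was 0.03 ± 0.23, and for MDM2 −0.11 ± 0.21, and neither was called.

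Against 2-DG in the same solvent, 32 of 61 genes differed (52.5%, limma, adjusted p under 0.05), 27 higher (44.3%) and 5 lower (8.20%) after H2O2. Among 22 targets of p53, 18 had higher levels and 0 lower ones, with a median of 0.99 against 0.36 over the panel, and all 6 genes of p53 feedback and growth arrest were among them. CDKN1A was at −1.64 and −1.24 after 2-DG, a difference of 2.41 ± 0.23 (limma, adjusted p = 5.2e-12). BTG2, at −4.19 and −3.91, was 2.27 ± 0.19 lower than after H2O2, and LCE1E, at −8.49 and −8.36, was 2.21 ± 0.21 lower. GADD45A was at −1.56 and −1.32 after 2-DG, below both H2O2 samples by over 1 cycle (limma, adjusted p = 1.6e-11). PPM1D, at −3.34 and −3.02 after 2-DG, differed by 1.85 ± 0.22. Against the H2O vehicle, 2-DG itself had 14 of the 22 targets higher and 2 lower (limma, adjusted p under 0.05), with a median of 0.63. Over the panel it had 22 of 61 genes higher and 10 lower, with a median of 0.46.

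The genes lower after H2O2 than after 2-DG were HIST1H2BI (−1.52), HIST1H2BG (−1.31), RAPGEF2 (−1.18), CENPE (−0.56) and CBLB (−0.55). RAPGEF2 was at −3.63 and −3.56 after 2-DG, close to the median of −3.89 of the other vehicles. With the replicate number as a block, 28 genes were higher and 11 lower, and the 6 added below were HIST1H1E, HIST1H2BB, HIST1H2BC, HIST1H2BN, HIST1H3D and ITPR1. On the panel median, 21 were higher and 14 lower.

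**Figure D5:**
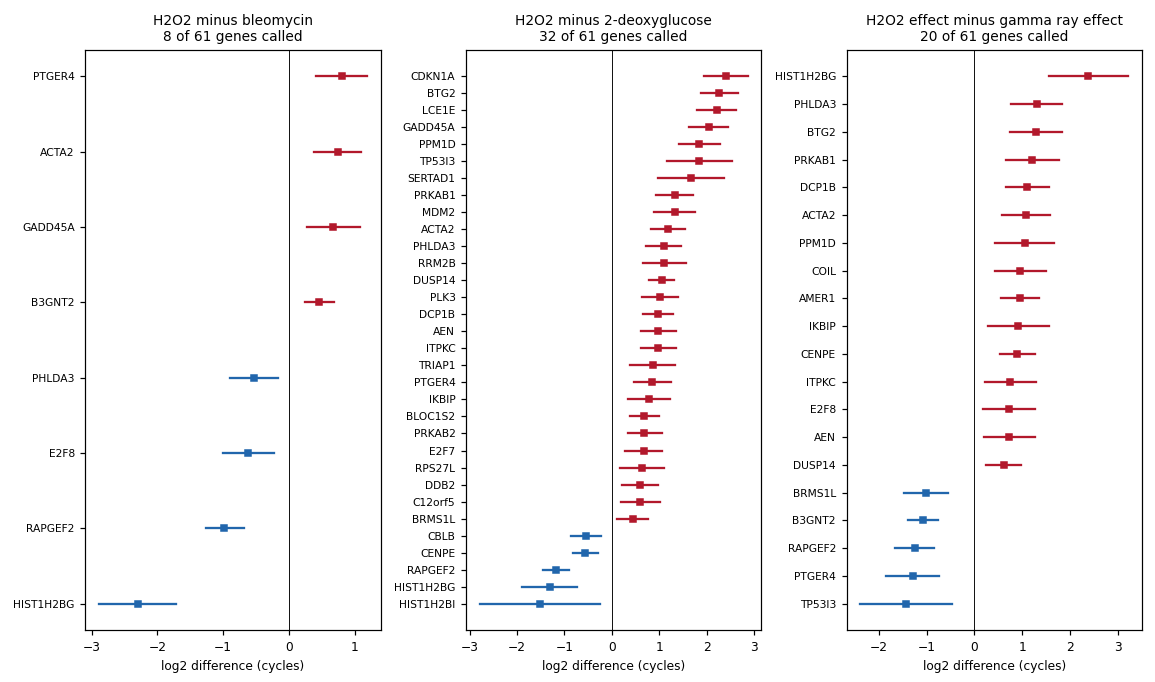
Log2 difference (cycles, x axes) with 95% confidence interval for the genes past the limma threshold (y axes; red higher, blue lower after H2O2). The panels show H2O2 minus bleomycin (8 genes), H2O2 minus 2-DG (32 genes) and the H2O2 effect minus the gamma ray effect, each against its own vehicle (20 genes).

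Gamma rays were given without a solvent, and their effect was taken against the Media vehicle. The H2O2 effect minus the gamma ray effect was past the threshold for 20 of 61 genes (32.8%, limma), 15 higher (24.6%) and 5 lower (8.20%). For gamma rays alone, 43 genes differed from the Media vehicle (70.5%), 32 higher (52.5%) and 11 lower (18.0%). PHLDA3 rose by 2.78 after H2O2 and by 1.48 after gamma rays, and the effects differed by 1.30 ± 0.26 (limma, adjusted p = 1.3e-04). Its levels after gamma rays, 0.29 and 0.27, were nevertheless above both H2O2 samples, since the Media vehicle was at −1.37 and −1.02. BTG2 (difference of effects 1.29), PRKAB1 (1.21) and DCP1B (1.11) also had larger effects after H2O2. For TP53I3, at −4.16 and −4.91 after gamma rays and −7.94 and −7.05 in the Media vehicle, the effect was smaller after H2O2, with a difference of −1.43 ± 0.48 (limma, adjusted p = 0.0183).

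HIST1H2BG fell in both treatments, from −1.82 and −1.42 to −5.73 and −4.86 with gamma rays, a log2 difference of −3.67 against −1.29 with H2O2. The H2O2 samples, at −5.69 and −5.30, lay within the same range as the irradiated ones. RAPGEF2 fell in both, and by more with H2O2 (difference of effects −1.25 ± 0.20). PTGER4 (−1.29), B3GNT2 (−1.08) and BRMS1L (−1.01), a subunit-associated protein of histone deacetylase complexes, completed the genes below. MDM2 and CDKN1A did not pass the threshold, at −0.23 ± 0.30 and −0.50 ± 0.32. This contrast uses the H2O vehicle, and the part that the gap of that vehicle from the other 8 has in it was not tested.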

How the data were processed

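RT-qPCR was run by the authors on custom TaqMan array plates with cDNA from total RNA of TK6 cells. They deposited uncorrected Cq values from runs of 40 cycles, 1 for each panel gene in each sample. Where a gene had 2 assays, the authors kept 1 by how well the biomarker performed. The deposited fold changes of the authors were not used. A Cq keeps no read depth, so precision rests on the number of samples. The p-values measure the spread between the replicates of a condition, pooled over the 38 conditions. They leave out any spread between separate control conditions, and by the same test the 2 H2O vehicles differed in 31 of 61 genes (50.8%). A small p-value therefore does not tell an effect of H2O2 from a peculiarity of its control. With only the 4 compared samples in the fit, 34 genes were higher and 9 lower, and the adjusted p of BTG2 was 1.8e-04.

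Minus delta Cq was computed here, and limma 3.58.1 in R 4.3.3 was fitted to all 76 samples with 1 coefficient for each of 38 conditions (38 residual degrees of freedom). The p-values were adjusted over 61 genes, and genes were called at an adjusted p under 0.05. Described in full were the 8 highest and the 8 lowest called differences that went the same way in both replicates. Genes fixed by name and the histone genes were added. For other comparisons the 5 highest and the 5 lowest were taken, also called and the same way in both replicates. The members and lists were chosen with earlier results of these data known. Gene IDs came from the study's supplement, and promoters from RefSeq. Alternatives were the reference gene, the control, the samples in the fit, a Cq filter of 30, the prior, left-out replicates and a replicate block.

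The replicate numbers were taken to stand for the 2 occasions of exposure that the study's methods name. The correlation over genes of same-numbered deviations was −0.436 between H2O2 and the H2O vehicle (0.258 without histone genes). It was 0.179 with bleomycin, 0.804 with 2-DG, 0.129 with gamma rays and 0.882 with the Media vehicle. Plots and motif searches used Python 3.11.15, with matplotlib 3.10.9.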

Additional observations from a re-analysis of the deposited data

Results flagged for a closer look

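The effects of H2O2 and of gamma rays, each against its own vehicle, differed by the limma test of the difference itself for the following genes, given on the log2 scale as the H2O2 effect minus the gamma ray effect. Higher values were found for HIST1H2BG (2.38), PHLDA3 (1.30), BTG2 (1.29), PRKAB1 (1.21) and DCP1B (1.11). Lower values were found for TP53I3 (−1.43), PTGER4 (−1.29), RAPGEF2 (−1.25), B3GNT2 (−1.08) and BRMS1L (−1.01). The sign of each was the same in both replicate numbers, but this was a condition of their selection and is no separate evidence. Both vehicles enter these differences, and their part was not tested.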

How the results depend on the processing

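With the panel median as scale, genes higher or lower numbered 20 and 16 against the H2O vehicle, 20 and 2 against bleomycin, 21 and 14 against 2-DG, and 8 and 11 for the difference from the gamma ray effect, against 34 and 11, 4 and 4, 27 and 5, and 15 and 5. With HPRT1 alone 7 were lower against the H2O vehicle and 2 against bleomycin, and with GUSB alone 8 were lower in the difference from the gamma ray effect. The H2O vehicle for NaAsO2 as control left 3 lower. The replicate block gave 7 higher and 9 lower against bleomycin (8 and 9 in the 16 samples in H2O), 11 lower against 2-DG (11 in those samples) and 8 lower in the difference from the gamma ray effect. It changed no call against the H2O vehicle. The 16 samples alone, without the block, gave 7 higher against bleomycin and 10 lower against 2-DG. Against the H2O vehicle, the block in the 16 samples gave 35 higher and 12 lower with the numbers as given and 37 and 13 with those of the H2O vehicle crossed, a choice made after seeing the data, and leaving out the histone genes, also chosen then, 34 and 10. With single samples left out, genes higher and lower ranged from 30 to 33 and 9 to 11 against the H2O vehicle, 1 to 4 and 2 to 2 against bleomycin, 23 to 27 and 4 to 7 against 2-DG, and 10 to 17 and 4 to 6 for the difference from the gamma ray effect.

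Among the genes described in full, directions against the H2O vehicle turned for 12. Others turned as well, among them E2F8 (−0.36), AMER1 (−0.24), SEL1L (−0.22) and COIL (−0.20) against the mean of the 8 other vehicles and CEBPD (0.95), GXYLT1 (0.63) and BRMS1L (0.56) against the H2O vehicle for NaAsO2. With the mean of the 8 other vehicles as control, B3GNT2 was 0.26, PTGER4 0.13, HIST1H1E −1.20 and HIST1H2BM −0.90. With the H2O vehicle for NaAsO2, B3GNT2 was 0.69, ITPR1 0.39, DAAM1 0.58, ID2 0.01, LRRFIP2 0.18 and HIST1H2BM −0.38. GADD45A was −0.14 with GUSB alone, −0.67 on the panel median and −0.09 to 0.19 with single samples left out (−0.09 without replicate 2 of either group). HIST1H1E was −0.06 with GUSB alone, −0.59 on the panel median and −0.17 to 0.42 with single samples left out (−0.17 without H2O2 replicate 1, −0.15 without H2O vehicle replicate 2). HIST1H2BB was 0.10 with HPRT1 alone and −0.52 to 0.35 with single samples left out (0.35 without H2O2 replicate 2, 0.32 without H2O vehicle replicate 2). HIST1H2BC ranged likewise from −0.88 to 0.08 and HIST1H2BI from −0.82 to 0.08, both 0.08 without H2O2 replicate 2. Over the named genes and settings of all comparisons, 730 values kept their direction and their side of the threshold. Another 36 kept their direction but lost the call, 9 gained it, and 23 changed direction. The causes were not tested.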
